A study of Homo sapiens with 12 samples.

Results

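The insulin-like growth factor (IGF) binding proteins IGFBP1 to IGFBP7 and the receptor IGF1R were followed across the knockdown of ZRF1 (gene symbol DNAJC2) in NT2/D1 cells, a human embryonal carcinoma line also called NTERA2. They were 8 of the 18646 genes measured and were represented by 13 of the 29341 probes that carried a single gene symbol. Cells with a short hairpin RNA against ZRF1 (shZRF1) were set against cells with a random hairpin (shRandom), either untreated (0 h) or after 3 h in 0.01 µM retinoic acid. On each of 12 arrays shZRF1 RNA was hybridised together with shRandom RNA of equal treatment, so each value is a log2 ratio of knockdown over control and no array gives a level. The 3 biological replicates of a time were each hybridised on a forward array, where Cy5 marked the knockdown RNA, and on a swapped array, where Cy3 did. Both kinds of cell carried a hairpin, and the labels do not say whether either culture was 1 clone. The cell line field numbers the knockdown cells from shZRF1 to shZRF6, with a number of its own for each replicate, while the titles call all of them shZRF1. Untreated and treated RNA never met on an array, so no value here is a response to retinoic acid. Absolute levels being absent, the defining markers of NT2/D1 cells could be read only as ratios.

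The genes were taken by name, with IGFBP7 already known from these arrays as 1 of the genes with the largest knockdown ratios. The knockdown ratios of the 8 genes are therefore given as a description, with no test. They are compared with the rest of the array only by counts and ranks. Intervals and calls of these genes from the limma fit over all genes are printed as description too.

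IGFBP1 to IGFBP6 are secreted proteins that bind IGF1 and IGF2 with high affinity, keep them from IGF1R and prolong their life in body fluids. IGF1R is the tyrosine kinase receptor through which both ligands activate the PI3K, AKT and MAP kinase pathways. IGFBP7 shares the amino-terminal domain of the family but binds IGFs only weakly, sits in the extracellular matrix of vessels and stroma, and is known from studies of senescence and of vessel growth.

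DNAJC2 was lower in the knockdown on 12 of 12 arrays, with log2 ratios from -2.73 to -0.39. Its mean was 0.616 of the control at 0 h (limma adjusted p = 0.106) and 0.514 at 3 h (limma adjusted p = 0.0348), with log2 means of -0.70 and -0.96. Without the wide arrays described next these means were -0.55 and -0.51, and without 3 h replicate 1 the 3 h mean was -0.63. The 3 h call ended without any of the 0 h replicates or without 3 h replicate 3. It also ended on forward arrays alone (-1.30) and on swapped arrays alone (-0.62), and held in 7 of 15 alternative fits. The arrays had equal interquartile ranges, but on 3 of them the range between the 1st and 99th percentiles was more than 1.2 times that of the median array. These wide arrays were the forward array of 3 h replicate 1 (3.04), the swapped array of 0 h replicate 2 (1.70) and the swapped array of 3 h replicate 3 (1.10), against 0.745 to 0.990 on the other 9.

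IGFBP7 had the highest mean of the 8 genes at both times. Its log2 ratio was above 0 on 12 of 12 arrays, as was true of 4.54% of all genes (7.01% on the 6 arrays of 0 h and 8.87% on those of 3 h). At 0 h the forward arrays gave 0.68, 0.70 and 0.58 for replicates 1 to 3 and the swapped arrays gave 0.51, 0.90 and 0.45. At 3 h the forward arrays gave 1.61, 0.56 and 0.54 and the swapped arrays 0.29, 0.46 and 0.79. The highest value, 1.61, came from the widest array. The next highest, 0.90 and 0.79, came from the other wide arrays. On the arrays that were not wide IGFBP7 lay between 0.45 and 0.70 at 0 h and between 0.29 and 0.56 at 3 h.

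Averaged over the forward and swapped array, the replicates of IGFBP7 were 0.59, 0.80 and 0.52 at 0 h and 0.95, 0.51 and 0.66 at 3 h. The mean was 0.64 ± 0.14 (SD, n = 3) at 0 h, a 1.55-fold excess, and 0.71 ± 0.22 (SD, n = 3) at 3 h, a 1.63-fold excess. The replicates of the 2 times overlapped. The difference of 3 h minus 0 h was 0.07, with a 95% interval of -0.22 to 0.37 from the limma fit. IGFBP7 held rank 18 from the top at 0 h and rank 12 at 3 h among all 18646 genes. Without the wide arrays its value was 0.57 at 0 h and 0.46 at 3 h. A single probe measured this gene.

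**Figure D1:**
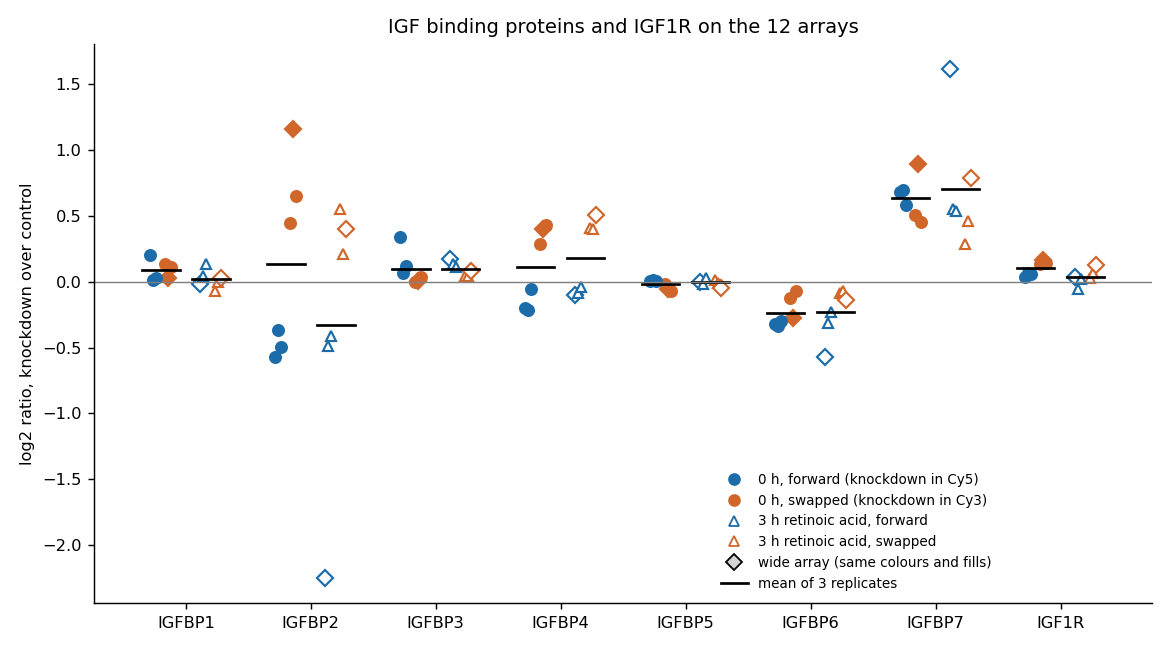
Log2 ratio of knockdown over control (vertical axis) for each gene on each of the 12 arrays, with colour for the dye orientation, filled symbols for 0 h, open symbols for 3 h, diamonds for the 3 wide arrays and black bars for the mean of 3 replicates. IGFBP7 lies above 0 on all 12 arrays and IGFBP6 below 0 on all 12, while IGFBP2 and IGFBP4 split by dye orientation, with forward arrays below 0 and swapped arrays above it.

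IGFBP6, which binds IGF2 in preference to IGF1, had the opposite sign. Its log2 ratio was below 0 on 12 of 12 arrays, as was true of 4.61% of all genes (8.6% on the 6 arrays of 0 h and 7.84% on those of 3 h). At 0 h it was -0.32, -0.33 and -0.30 on the forward arrays of replicates 1 to 3 and -0.12, -0.28 and -0.07 on the swapped arrays. At 3 h it was -0.58, -0.31 and -0.23 on forward and -0.08, -0.07 and -0.14 on swapped arrays. Forward arrays were thus lower than the swapped array of the same replicate in 6 of 6 pairs, while both orientations kept the same sign. The replicate means were -0.22, -0.30 and -0.18 at 0 h and -0.33, -0.19 and -0.18 at 3 h, so the 2 times overlapped. The mean was -0.24 ± 0.06 (SD, n = 3) at 0 h and -0.23 ± 0.08 (SD, n = 3) at 3 h, which is 0.848 and 0.850 of the control.

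IGFBP4, an IGF binding protein that the protease PAPPA cuts to release its ligand, depended on the dye. Its forward arrays were below 0 (-0.20, -0.21 and -0.06 at 0 h, -0.10, -0.08 and -0.04 at 3 h). Its swapped arrays were above 0 (0.29, 0.40 and 0.43 at 0 h, 0.41, 0.40 and 0.51 at 3 h). After averaging, the replicates were 0.04, 0.09 and 0.19 at 0 h and 0.16, 0.16 and 0.23 at 3 h, above 0 in 6 of 6. The mean was 0.11 ± 0.07 (SD, n = 3) at 0 h and 0.18 ± 0.04 (SD, n = 3) at 3 h, and on forward arrays alone the 3 h value was -0.07. The sign of IGFBP4 therefore rests on the dye term cancelling within each pair of arrays.

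Promoters were available for 6 of the 8 genes, from RefSeq on build GRCh38.p14. Those of IGFBP6 and IGFBP4 are shown because these genes had the next largest mean ratios after IGFBP7 with 6 of 6 replicates on one side of 0. Each runs from 250 bases before the annotated start to 50 bases after it, on the strand of the gene, with the motifs searched in capitals. IGFBP6 lies at chr12:53097417-53097716 on the plus strand and IGFBP4 at chr17:40443200-40443499 on the plus strand.
IGFBP6: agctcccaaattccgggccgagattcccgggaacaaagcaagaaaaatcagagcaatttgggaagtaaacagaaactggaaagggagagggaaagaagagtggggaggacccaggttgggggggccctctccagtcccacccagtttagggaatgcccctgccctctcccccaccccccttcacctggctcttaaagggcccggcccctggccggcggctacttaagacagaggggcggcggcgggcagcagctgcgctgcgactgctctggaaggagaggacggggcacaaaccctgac
IGFBP4: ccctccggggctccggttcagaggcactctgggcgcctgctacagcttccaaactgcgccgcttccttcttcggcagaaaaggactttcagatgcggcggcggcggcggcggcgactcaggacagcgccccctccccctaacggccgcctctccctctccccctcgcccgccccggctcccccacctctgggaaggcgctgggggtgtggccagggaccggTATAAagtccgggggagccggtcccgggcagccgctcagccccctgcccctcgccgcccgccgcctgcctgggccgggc
Both strands were searched for 3 motifs. TATAA is the core of the box that positions transcription starts. AGGTCA is the core site of nuclear receptors such as those for retinoic acid. CAAAACA is part of the insulin response element of the IGFBP1 gene, to which FOXO factors bind. No match of one motif overlapped another. The promoter of IGFBP4 held TATAA, as did 21.1% of 27305 promoters, and that of IGFBP6 held none of the 3 motifs. AGGTCA, present in 13.9% of promoters, was found among the 6 genes in that of IGFBP2. CAAAACA, in 4.91% of promoters, was in none of the 6. The IGFBP6 promoter had 12 CG dinucleotides and that of IGFBP4 had 30, against a median of 14 over all promoters, and the IGF1R promoter had 55. IGFBP1 and IGFBP7 had no entry.

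IGFBP2, a binding protein abundant in fetal tissue, had the widest spread of the family, and its replicates did not keep one sign. Its forward arrays gave -0.58, -0.37 and -0.50 at 0 h and -2.25, -0.49 and -0.41 at 3 h. Its swapped arrays gave 0.44, 1.16 and 0.65 at 0 h and 0.56, 0.21 and 0.40 at 3 h. Before the swapped arrays were turned, the dye Cy5 was thus lower than Cy3 on 12 of 12 arrays, whichever RNA carried it. The replicates were -0.07, 0.39 and 0.08 at 0 h and -0.85, -0.14 and -0.01 at 3 h. The means were 0.14 ± 0.24 and -0.33 ± 0.45 (SD, n = 3), each smaller than its SD. Without the wide arrays they were 0.03 and -0.03.

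The ratio of the 2 dyes was separated from that of the 2 RNAs within each pair of arrays. Over all genes the turned forward and swapped arrays of a replicate hardly correlated. For replicates 1 to 3 the correlations were -0.076, -0.114 and -0.082 at 0 h and -0.137, 0.162 and -0.089 at 3 h. Disagreement between the orientations was thus not particular to IGFBP2 and IGFBP4. The dye term, Cy5 over Cy3 on the log2 scale, was -0.67 ± 0.39 (SD, n = 6) for IGFBP2, larger in size than that of 99.6% of genes. It exceeded the knockdown term of IGFBP2 in 6 of 6 replicates. For IGFBP4 it was -0.26 ± 0.03 (SD, n = 6), larger than in 96.1% of genes, and it exceeded the knockdown term in 6 of 6 replicates. For IGFBP7 the knockdown term was 0.67 ± 0.17 against a dye term of 0.11 ± 0.29 (SD, n = 6). For IGFBP6 the 2 terms were -0.24 ± 0.07 and -0.11 ± 0.08. In IGFBP6 and IGFBP7 the knockdown term was the larger in 6 of 6 replicates.

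**Figure D2:**
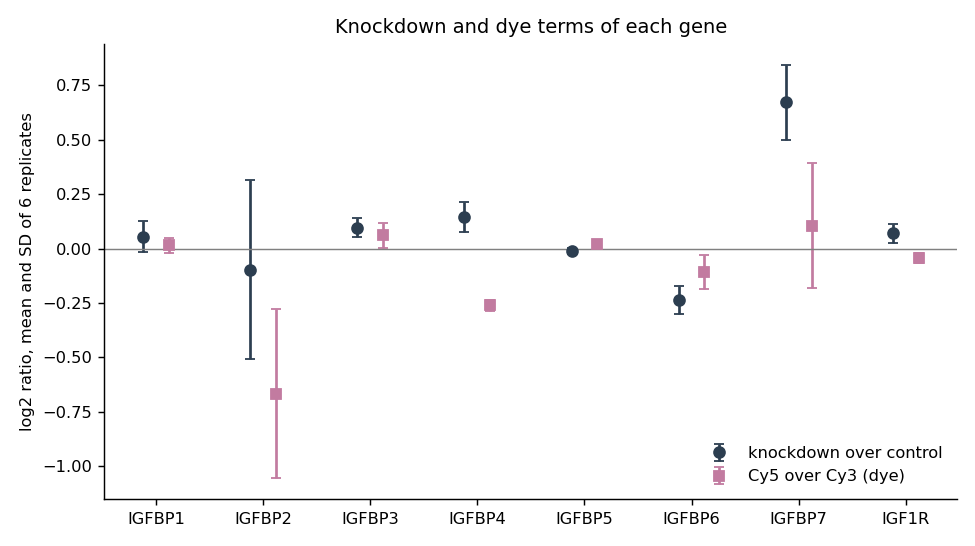
Knockdown term (circles) and dye term (squares) of each gene on the log2 scale, as the mean and SD of 6 replicates. The knockdown term of IGFBP7, at 0.67, exceeds its dye term, whereas for IGFBP2 and IGFBP4 the dye terms, at -0.67 and -0.26, are larger in size than the knockdown terms.

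IGFBP1, a liver and decidua protein that insulin represses, was measured by 1 probe. Its replicates were 0.17, 0.02 and 0.07 at 0 h and -0.04, 0.02 and 0.08 at 3 h. IGFBP3, the main IGF carrier of serum, gave 0.17, 0.04 and 0.08 at 0 h and 0.11, 0.09 and 0.09 at 3 h. All 6 replicates of IGFBP3 were above 0, with means of 0.09 ± 0.07 and 0.10 ± 0.01 (SD, n = 3). Its 2 probes differed in size, at 0.14 and 0.05 at 0 h and 0.14 and 0.05 at 3 h.

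IGFBP5, which binds matrix and bone mineral, was the member closest to 0. Its 12 arrays lay between -0.07 and 0.03, and its means were -0.02 ± 0.01 at 0 h and -0.01 ± 0.01 at 3 h (SD, n = 3). None of its 3 probes had a mean above 0.04 in size at either time. A ratio near 0 cannot be told from the absence of signal here, since no intensities were used.

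IGF1R was slightly higher in the knockdown at 0 h, with replicates of 0.09, 0.12 and 0.10, a mean of 0.10 ± 0.02 (SD, n = 3) and 6 of 6 arrays above 0, as were 7.01% of all genes. At 3 h the replicates were 0.03, 0.00 and 0.07, with a mean of 0.04 ± 0.04 (SD, n = 3), below each 0 h replicate. The difference of 3 h minus 0 h was -0.06, with a 95% interval of -0.14 to 0.01. The 3 probes of IGF1R differed. At 0 h 2 of them averaged 0.15 and 0.14, and the other averaged 0.02. At 3 h they averaged 0.09, 0.06 and -0.04.

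The order of the means at 0 h, from the highest, was IGFBP7, IGFBP2, IGFBP4, IGF1R, IGFBP3, IGFBP1, IGFBP5 and IGFBP6. From IGFBP2 to IGFBP1 they lay between 0.09 and 0.14, within the SD of IGFBP2. At 3 h the order was IGFBP7, IGFBP4, IGFBP3, IGF1R, IGFBP1, IGFBP5, IGFBP6 and IGFBP2. IGFBP6 and IGFBP2, its lowest pair, did not differ beyond the spread of IGFBP2. In the limma fit over all genes 2 of the 8 were past an adjusted p of 0.05 at 0 h (IGFBP7 higher, IGFBP6 lower), where 6.82% of all genes were (2.92% higher and 3.89% lower). At 3 h 3 of 8 were past it (IGFBP7 and IGFBP4 higher, IGFBP6 lower), where 12.6% of all genes were (6.84% higher and 5.77% lower). Nothing is read from these counts, since the ratios were known when the genes were chosen. The tallies that follow show how far these calls depended on the processing and lend them no support. Of 15 alternative fits the 0 h calls held in 10 for IGFBP7 and 10 for IGFBP6. Both ended without any of the 0 h replicates and on forward arrays alone. The 3 h calls held in 12 for IGFBP7, 11 for IGFBP6 and 10 for IGFBP4, and all 3 ended with the 3 h replicates fitted alone. On forward arrays alone the 3 h calls of IGFBP7 and IGFBP4 ended, and on swapped arrays alone that of IGFBP6. Without 3 h replicate 2 those of IGFBP6 and IGFBP4 ended, and without 3 h replicate 3 that of IGFBP4. For the difference between the times 0 of 8 were past an adjusted p of 0.05, where 0.0% of all genes were by limma. At an unadjusted p under 0.05 the difference held 943 genes, or 5.06%, with 0 of the 8 among them.

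**Figure D3:**
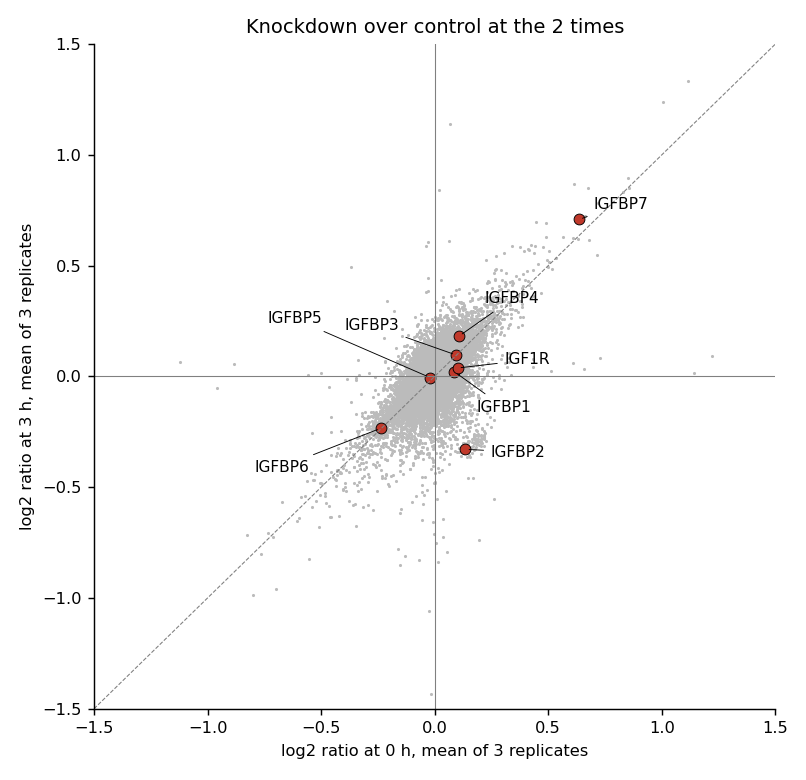
Mean log2 ratio of knockdown over control at 0 h (horizontal axis) and at 3 h (vertical axis), each the mean of 3 replicates, for 18640 genes in grey and the 8 named genes in red (6 genes lie outside the axes, and the dashed line marks equal values). IGFBP7 lies at 0.64 and 0.71, far from the bulk of genes, and IGFBP6 at -0.24 and -0.23, while IGFBP2 lies off the diagonal at 0.14 and -0.33.

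The genes whose pattern was most like that of IGFBP7 were sought by the root mean square distance over the 12 log2 ratios. The 5 nearest were TAGAP (0.158), LEMD1 (0.163), SNHG15 (0.170), ECSCR (0.173) and SHISA3 (0.188), where the value is that distance in log2 units. ECSCR encodes an endothelial surface protein and SHISA3 a protein of the endoplasmic reticulum that holds back WNT and FGF receptors. SNHG15 is a small nucleolar RNA host gene. Each was above 0 on 12 of 12 arrays. Their Pearson correlations with IGFBP7 over the 12 arrays ran from 0.919 (TAGAP) to 0.958 (SNHG15). The points of each correlation share arrays, and all of these genes had their highest value on the forward array of 3 h replicate 1, from 1.27 for TAGAP to 1.99 for SHISA3. The 5 genes were picked for nearness over these same 12 ratios, so the shared traits follow from the choice.

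The neighbours of each gene along its chromosome were examined next, as the median of the 10 nearest measured genes on each side. The 20 neighbours of IGFBP7 on chromosome 4 had medians of -0.02 at 0 h and -0.01 at 3 h, and IGFBP7 was above 20 of 20 at both times. As IGFBP7 was known for its ratio and held ranks 18 and 12 among all genes, a place above 20 genes was nearly given. The highest neighbour at 0 h was TMPRSS11A at 0.09, and the highest at 3 h was NOA1 at 0.08. The 20 neighbours of IGFBP6 on chromosome 12, which include KRT8, KRT18 and RARG, had medians of -0.01 and -0.02. With 5 neighbours on each side the 0 h median was 0.034. IGFBP6 was below 20 of 20 at both times. With 20 neighbours on each side 1 of 40, NPFF at -0.35, lay below it at 3 h, and 0 of 40 at 0 h. The ratio of IGFBP6 was also known, and it held ranks 300 at 0 h and 649 at 3 h from the bottom of all genes.

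IGFBP4 on chromosome 17 has the retinoic acid receptor gene RARA and the chemokine receptor gene CCR7 among its neighbours. CCR7 was at -0.54 at 0 h and -0.44 at 3 h and RARA at 0.03 and 0.17, and the median of the 20 neighbours was 0.00 at 0 h and -0.02 at 3 h. IGFBP4 was above 20 of 20 neighbours at both times, by narrow margins. It stood at 0.108 at 0 h against 0.094 for CDC6, and at 0.182 at 3 h against 0.169 for RARA. On forward arrays alone IGFBP4 was at -0.16 at 0 h and -0.07 at 3 h. With 20 neighbours on each side it was above 39 of 40 at 0 h and 40 of 40 at 3 h. IGFBP1 and IGFBP3 are adjacent on chromosome 7, where 16 of their 20 neighbours had ratios above 0 at each time. The median of these neighbours was 0.08 at 0 h and 0.05 at 3 h, but 0.025 and 0.021 with 5 neighbours on each side, and 0.058 at 0 h without the wide arrays. IGFBP3 was above 12 of the 20 at 0 h and 13 at 3 h, and IGFBP1 above 11 and 7, so the small ratios of this pair lay within the range of their chromosomal surroundings. SNHG15, 1 of the 5 genes nearest to IGFBP7 in pattern, was the highest of these neighbours, at 0.48 and 0.58.

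IGFBP2 and IGFBP5 are adjacent on chromosome 2, and their 20 neighbours had a median of -0.01 at both times. IGF1R on chromosome 15 was above 19 of its 20 neighbours at 0 h and 16 at 3 h. The median of those neighbours was 0.01 at both times. At 0 h it was 0.044 with 5 neighbours on each side and 0.036 with 20, and at 3 h 0.011 and 0.014.

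**Figure D4:**
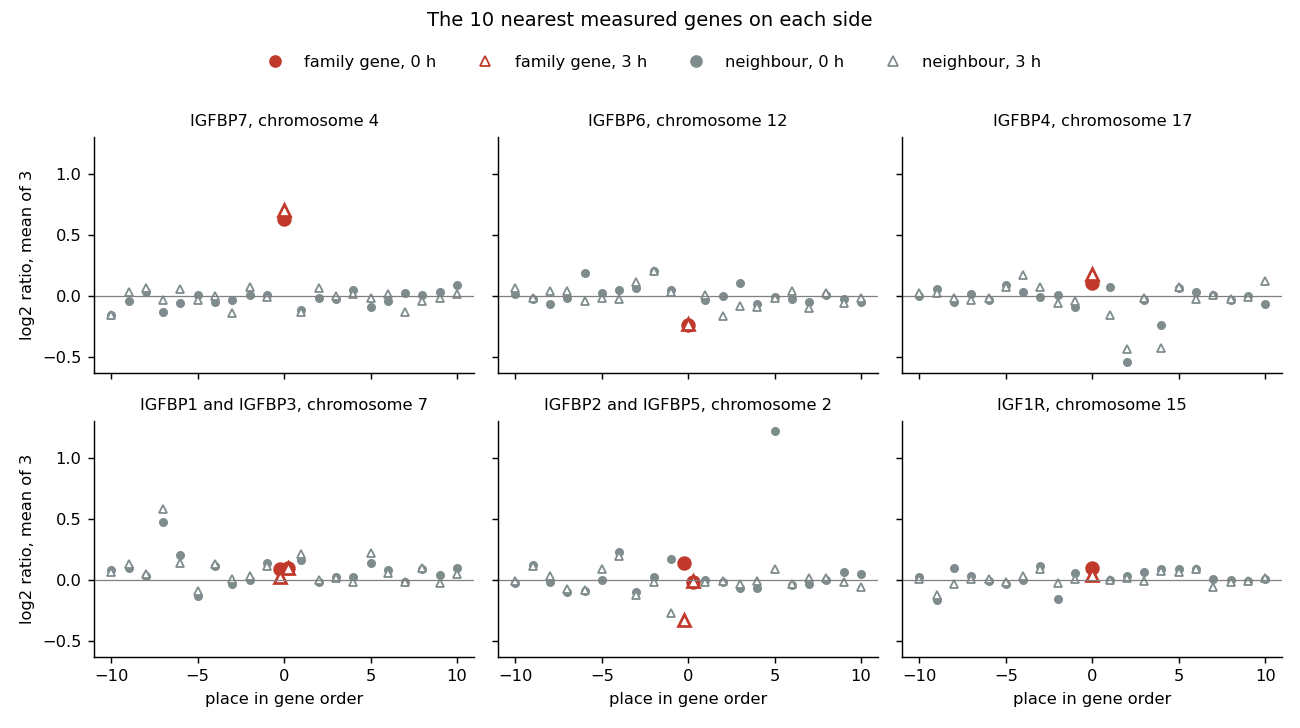
Mean log2 ratio of knockdown over control (3 replicates) of each gene in red and of its 10 nearest measured neighbours on each side in grey, by place in gene order, with filled circles for 0 h and open triangles for 3 h. IGFBP7 lies above and IGFBP6 below all 20 of their neighbours at both times, while IGFBP1 and IGFBP3 lie among neighbours whose median was 0.08 at 0 h (0.025 for the nearest 5 on each side).

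The rest of the IGF pathway was taken as 78 genes listed by role, of which 74 were measured. At 0 h 1 of 74 rose and 3 fell in the limma fit, or 5.41% against 6.82% of all genes. At 3 h 7 rose and 6 fell, or 17.6% against 12.6% of all genes. These splits by direction turned with the dye. Forward arrays alone gave 0 higher and 4 lower at 0 h and 1 higher and 10 lower at 3 h, whereas swapped arrays alone gave 17 higher and 8 lower at 0 h and 11 higher and 3 lower at 3 h. Without the wide arrays there were 10 higher and 8 lower at 0 h and 10 higher and 11 lower at 3 h. The list median was 0.009 at 0 h and -0.005 at 3 h, beside -0.002 and 0.004 for all genes. With the 3 h replicates fitted alone 0 of the 13 calls at 3 h remained, and the same was true of all genes. In the limma test of the difference between the times 0 of 74 genes passed, while 6 had p under 0.05 before adjustment.

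Among the ligands, IGF2, the fetal growth factor, was below 0 on 12 of 12 arrays, as were 4.61% of all genes. Of the 3 ligands 0 were called at 0 h, where 6.82% of all genes were. At 3 h 1 was called, or 33.3% against 12.6% of all genes. At 3 h IGF2 fell by 0.35 in log2 units, with a moderated SE of 0.06 (n = 3, limma adjusted p = 0.0202), with replicates of -0.54, -0.23 and -0.27. At 0 h it stood at -0.26 and did not pass (limma adjusted p = 0.0591), but it passed in 6 of 15 alternatives, among them without the wide arrays (-0.23) and with the 0 h replicates fitted alone. On forward arrays alone the 3 h value was -0.51 and the call ended, and on swapped arrays it was -0.19. Its lowest array, -0.90, was the forward array of 3 h replicate 1, and without the wide arrays the 3 h value was -0.24. IGF1 and INS were between -0.02 and 0.05 at both times. Of the related receptors INSR, IGF2R and INSRR 0 of 3 passed. IGF2R, which clears IGF2, was at -0.05 at 0 h and -0.21 at 3 h (limma adjusted p = 0.0621), and without the wide arrays its 3 h value was -0.13 and passed (limma adjusted p = 0.00555).

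Among 10 carriers, proteases and protease inhibitors, STC2 was the gene that passed. That was 10.0% called at each time, against 6.82% of all genes at 0 h and 12.6% at 3 h. STC2, a stanniocalcin that blocks the IGFBP4 protease PAPPA, fell by 0.60 ± 0.06 at 0 h (moderated SE, n = 3, limma adjusted p = 0.00744) and by 0.64 ± 0.06 at 3 h (limma adjusted p = 0.00637). Its replicates were -0.51, -0.76 and -0.53 at 0 h and -0.77, -0.54 and -0.61 at 3 h. The other 9, which include PAPPA, PAPPA2, STC1 and IGFALS, did not pass at either time. The 0 h call of STC2 ended without 0 h replicate 1 or 3, and its 3 h call held without each replicate.

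Of 12 relatives that share the IGFBP domain 1 rose and 1 fell at 0 h, or 16.7% against 6.82% of all genes, and 3 rose and 2 fell at 3 h, or 41.7% against 12.6%. KAZALD1, also known as an IGFBP-related protein, rose by 0.33 ± 0.06 at 0 h (moderated SE, n = 3, limma adjusted p = 0.0274) and by 0.32 ± 0.06 at 3 h (limma adjusted p = 0.0218). CCN2, a matricellular target of TGF-beta and YAP, fell by 0.43 ± 0.04 at 0 h (limma adjusted p = 0.00646) and by 0.32 ± 0.04 at 3 h (limma adjusted p = 0.00997). CCN2 was smaller in size on forward arrays, at -0.20 and no longer past the threshold at 0 h and -0.21 at 3 h, than on swapped arrays, at -0.65 and -0.44. HTRA3, a secreted serine protease, rose by 0.18 and CCN1, another matricellular protein, by 0.17 at 3 h. CCN3 fell at 3 h by 0.10 (limma adjusted p = 0.0318), a gene named outside the rule after its value was seen. The CCN2 call at 3 h held without each replicate. The CCN3 call ended without any 1 of the 6 replicates and also without the wide arrays. The 0 h calls ended without 0 h replicate 1 for CCN2 and without any of the 0 h replicates for KAZALD1. At 3 h the KAZALD1 call ended without 0 h replicate 1 or 3 or 3 h replicate 3, that of HTRA3 without 3 h replicate 2 and that of CCN1 without 3 h replicate 3. Without the wide arrays CCN1 stood at 0.10 at 3 h.

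Of 15 receptor substrates and adaptors 0 passed at 0 h, where 6.82% of all genes did. At 3 h 2 rose, or 13.3% against 12.6% of all genes. IRS1, the docking protein of IGF1R, rose by 0.17 ± 0.02 (moderated SE, n = 3, limma adjusted p = 0.0137), a call that held without each replicate but ended on swapped arrays alone (0.09). SOCS1, a suppressor of cytokine and insulin signalling, rose by 0.18 ± 0.03 (limma adjusted p = 0.0147), a call that ended without 3 h replicate 3. Among 15 measured genes of PI3K, AKT and FOXO, BAD, a pro-apoptotic target of AKT, fell by 0.17 at 0 h and by 0.15 at 3 h, and PIK3CB, a PI3K catalytic subunit, rose by 0.13 at 3 h. Called in this role were 6.67% at 0 h and 13.3% at 3 h, against 6.82% and 12.6% of all genes. Of 13 genes of the TOR branch EIF4EBP2, a repressor of cap-dependent translation, rose by 0.14 at 3 h. It stood at 0.09 without the wide arrays. The TOR branch had 0.0% called at 0 h and 7.69% at 3 h. Of the 3 IGF2 mRNA-binding proteins IGF2BP1 fell by 0.11 at 3 h, or 33.3% called, with 0.0% at 0 h. These 4 genes had limma adjusted p from 0.0252 to 0.0460. The 0 h call of BAD ended without any of the 0 h replicates. Among the 3 h calls, those of BAD, PIK3CB and EIF4EBP2 held in 1 of 6 omissions of a single replicate and that of IGF2BP1 in 0 of 6. On forward arrays alone the calls of BAD, KAZALD1, HTRA3, CCN1, SOCS1, EIF4EBP2 and PIK3CB ended, with that of STC2 at 0 h, and on swapped arrays alone those of CCN1, CCN3, IGF2BP1 and BAD at 3 h. PIK3CB was at 0.07 at 3 h on forward arrays and IGF2BP1 at -0.06 on swapped arrays.

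**Figure D5:**
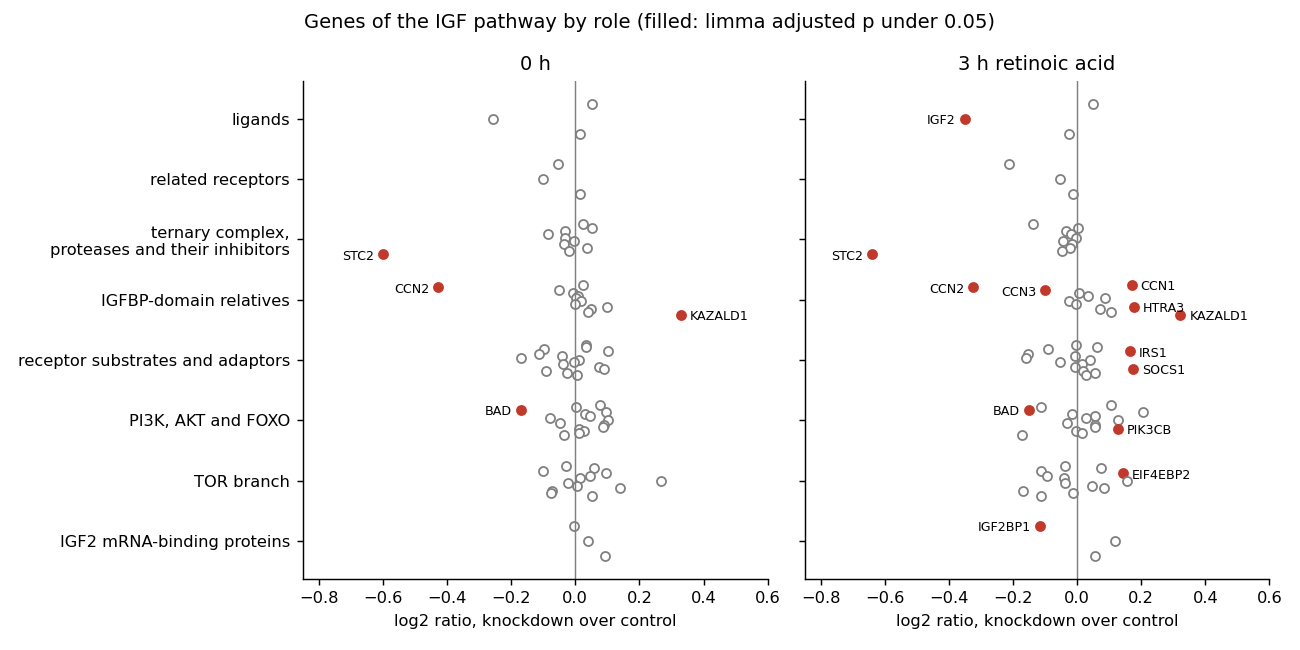
Log2 ratio of knockdown over control at 0 h (left) and 3 h (right) for the 74 measured genes of the IGF pathway, 1 point per gene, grouped by role. Filled and labelled points passed the limma test: 4 at 0 h and 13 at 3 h, with STC2 the lowest and KAZALD1 the highest at both times.

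Since IGFBP7 is abundant in endothelial and mesenchymal cells, the markers of other cell types were read beside it. The marker calls come from the limma fit of all arrays. How they depend on dye orientation, wide arrays or single replicates was not examined. Of 12 endothelial markers TIE1 rose and VWF fell at both times and CDH5 rose at 3 h, or 2 of 12 called at 0 h and 3 of 12 at 3 h against 6.82% and 12.6% of all genes, and the list median lay between -0.002 and 0.069 in every replicate. Of 17 fibroblast and mesenchymal markers COL5A2, THY1 and LUM rose and COL1A1 fell at both times, with S100A4 also higher at 3 h, or 23.5% and 29.4% called. The median of that list lay between 0.001 and 0.061 in every replicate. Of 12 trophoblast and epithelial markers CDH1, TFAP2A and HAND1 rose at both times and KRT19 fell at 3 h, or 3 of 12 and 4 of 12 called, with HAND1 at 0.39 at 0 h and CDH1 at 0.36 at 3 h. The median of that list in the replicates lay between -0.04 and 0.11 at 0 h and between 0.002 and 0.052 at 3 h. Of 8 measured neural markers MAP2 fell at 0 h, while at 3 h PAX6 rose and SOX1 and TUBB3 fell, or 12.5% and 37.5% called. Of 10 visceral endoderm and liver markers 0 passed at either time in limma, with 1 at each time at an unadjusted p under 0.05. Of 11 measured markers of embryonal carcinoma and pluripotent cells 0 passed at either time in limma, with 2 at 0 h and 3 at 3 h at an unadjusted p under 0.05, which 22.8% and 30.3% of all genes had. Their median was 0.00 at 0 h and -0.11 at 3 h, with replicate medians from -0.026 to 0.033 and from -0.132 to 0.024. The part of these markers in the ratio of IGFBP7 was not tested, and in bulk RNA fewer cells of a type and less RNA per cell cannot be told apart.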

How the data were processed

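RNA of NT2/D1 cells was compared on 12 Agilent 2-colour arrays, 6 at each time. The authors deposited a score per probe that was taken as a signed fold change, Cy5 relative to Cy3, in which a ratio below 1 is given as minus its inverse. No label states this unit, and it was inferred because 0 values fell between -1 and 1. The submitters' processing notes name limma, and its version, background correction and normalization are not given in the sources used here. Dim spots could not be left out, since intensities were not used, and precision is limited by the number of arrays.

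Values were converted to log2, and the sign of swapped arrays was turned by the dyes in the labels. DNAJC2 had opposite signs on the 2 orientations before turning. Of 41000 probes, 29341 had a single symbol, updated through Entrez numbers with a RefSeq table (GRCh38.p14). Probes of a gene were averaged, then the 2 arrays of a replicate, which left 6 values per gene. Models with a coefficient per time were fitted with limma 3.58.1 (lmFit, eBayes) in R 4.3.3, tested on simulated data, with Benjamini-Hochberg adjustment over 18646 genes and a threshold of 0.05. A moderated SE uses 1 spread per gene for the 2 times. The labels call the replicates biological, and the design text places them on different days without tying numbers to days.

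Replicates with the same number did not deviate together (correlations of 0.037, -0.029 and -0.305 across genes), so they were not treated as pairs. The members and lists were chosen with earlier results of these data known. The rule for pathway genes took, per role and time, up to 4 genes past the threshold with the largest change, and for a role with none the gene with the smallest p. Some listed genes were not analysed here. Alternatives changed the scale of the arrays, the dye orientation, the wide arrays, the summary of probes, the moderation, the replicate block, the times fitted, the number of neighbours and the replicates kept.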

Additional observations from a re-analysis of the deposited data

Results flagged for a closer look

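In 8 of 44 sets of 6 arrays (22 named genes at 2 times) the highest or lowest array lay apart from the other 5 by more than 0.625 of the whole range. For 6 independent normal values of equal spread chance gives about 1 in 20. That rate does not strictly apply here, since the sets share arrays, mix dye orientations and include the wide arrays. Of the 8 sets, 7 fell on wide arrays. On the forward array of 3 h replicate 1 IGFBP2 stood at -2.25 (others -0.49 to 0.56), DNAJC2 at -2.73, IGF2 at -0.90 and IGF2R at -0.71. On the swapped array of 0 h replicate 2 DNAJC2 stood at -1.41, KAZALD1 at 0.55 and STC2 at -1.02. IGFBP3 stood at 0.34 on the forward array of 0 h replicate 1, which was not wide, against 0.00 to 0.12 on the other 5.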

How the results depend on the processing

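The sign of IGFBP7 was positive under 15 of 15 alternatives at each time, from 0.56 to 0.69 at 0 h and from 0.46 to 0.90 at 3 h. All 12 arrays of IGFBP7 were above 0, so alternatives that average, drop or rescale arrays had to keep this sign. IGFBP7 was 0.46 at 3 h without the wide arrays, which moved it by more than the SD of the replicates. It ranged from 0.56 to 0.69 at 0 h and from 0.59 to 0.81 at 3 h with 1 replicate left out. The sign of IGFBP6 was negative under 15 of 15 at each time, which its 12 arrays below 0 likewise largely fixed in advance. IGFBP4 turned to -0.07 at 3 h on forward arrays alone.

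Counts of calls moved far more. Genes past the threshold at 0 h numbered 1271 in the limma fit, 2757 with arrays rescaled by width, 799 on forward and 4427 on swapped arrays, 3328 without the wide arrays and 2338 in the fit of single arrays, and 37 to 2396 with 1 replicate left out. At 3 h 2350 became 3596 rescaled, 1262 on forward arrays, 3567 with single arrays, 0 with the 3 h replicates fitted alone (4147 at an unadjusted p under 0.05) and 697 to 1490 with 1 replicate left out. Pathway calls at 0 h were 4, then 14 rescaled, 25 swapped, 18 without wide arrays, 13 with single arrays, 8 with times fitted alone and 0 to 11 with 1 replicate left out. At 3 h they were 13, then 23 rescaled, 21 without wide arrays, 21 with single arrays, 0 with 3 h alone (22 at an unadjusted p under 0.05) and 6 to 10 with 1 replicate left out. The difference between the times gave 0 to 1 genes with 1 replicate left out. With the replicate block limma called 0 genes at 0 h, at 3 h and in the pathway list at each time (3257, 4687, 18 and 24 at an unadjusted p under 0.05). The numbers pair no samples by design, so the block is given as an alternative only. The cause of these moves was not tested.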
